A study of Mus musculus with 32 samples.

Results

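The transcriptome of adipocytes in which 2 transcription factors, Nfe2l1 and Atf3, were silenced together was compared with that of adipocytes given a scrambled siRNA, without any cholesterol load. The comparison rests on 8 of the 32 libraries of the series, 4 in each group. Both groups were chosen by their labels alone. The double-silenced cells were primary white adipocytes given siNfe2l1 and siAtf3 together, labelled Nfe2l1 + Atf3 knockdown, and their treatment was control. The scramble cells were primary white adipocytes given a scrambled siRNA, labelled WT, with the same control treatment. Cells given siNfe2l1 alone and siAtf3 alone (4 libraries each, control treatment) are used below to set the double silencing beside each single siRNA. All cells came from murine subcutaneous fat and were kept in DMEM F-12 with 10% serum. The labels give neither sex nor age of the animals, and whether the unloaded cells received the carrier of cholesterol without its cargo is not stated. Libraries of 1 group are labelled as biological replicates, without saying whether these came from separate mice or separate dishes, so each p-value measures the spread between libraries. The study asked how the Nfe2l1 and Atf3 pathway bears on inflammation in adipocytes loaded with cholesterol, and these groups give its unloaded state.

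NFE2L1 is a membrane-bound transcription factor of the endoplasmic reticulum, where it is normally retrotranslocated and degraded. When proteasomes fail to remove it, it is cleaved, enters the nucleus and binds antioxidant response elements as a partner of small MAF proteins, and genes of proteasome subunits are its best known targets. ATF3 is a basic leucine zipper factor of the ATF and CREB family, induced by stress kinases and by the integrated stress response, and in immune cells it is known as a repressor of inflammatory genes. White adipocytes store triglyceride, make fatty acids, and secrete hormones and matrix proteins.

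Proteasome subunit genes fell in 31 of 33 cases in this comparison, and 3 of their promoters are shown because they hold the core of the antioxidant response element that NFE2L1 binds. The letters searched were TGACNNNGC on both strands, from 250 bases before to 50 bases after the annotated start of transcription. Of 33 subunit genes, 27 had a promoter in the RefSeq table (build GRCm38.p6), and 6 of these 27 held the letters (22.2%), against 14.0% of all 27025 genes in the table. The 6 subunit genes were Adrm1, Psmb5, Psmb6, Psmc6, Psmd12 and Sem1. The letters were also in 5 of 18 macrophage marker genes (27.8%), a list that mostly rose. They were in 3 of 19 collagen and matrix genes (15.8%) and in 2 of 18 genes of fatty acid synthesis and desaturation (11.1%). Psmb6 and Psmc6, whose promoters hold the letters too, were the 2 subunits not called lower, and the promoters shown are all of genes that fell. The palindrome TGACGTCA of ATF and CREB factors was in 0 of the 27, against 2.03% of all genes, and the AP-1 letters TGANTCA were in 1 of the 27, against 8.97%. A match is a description of these letters and not a binding site, and a promoter without a match says nothing about the factor. Adrm1 (chr2:180171338-180171637, plus strand) encodes a ubiquitin receptor of the proteasome, and its match starts 162 bases before the start of transcription. Psmb5 (chr14:54617946-54618245, minus strand) encodes a catalytic subunit of the core, with the match 47 bases before the start. Psmd12 (chr11:107479278-107479577, plus strand) encodes a lid subunit, and its match, on the opposite strand, starts 247 bases before the start. The matched letters are in capitals.
Adrm1: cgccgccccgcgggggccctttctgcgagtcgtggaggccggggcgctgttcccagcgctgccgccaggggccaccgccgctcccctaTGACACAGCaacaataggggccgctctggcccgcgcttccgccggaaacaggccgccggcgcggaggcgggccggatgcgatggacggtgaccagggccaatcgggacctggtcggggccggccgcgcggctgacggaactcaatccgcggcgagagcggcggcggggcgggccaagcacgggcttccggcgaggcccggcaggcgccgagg
Psmb5: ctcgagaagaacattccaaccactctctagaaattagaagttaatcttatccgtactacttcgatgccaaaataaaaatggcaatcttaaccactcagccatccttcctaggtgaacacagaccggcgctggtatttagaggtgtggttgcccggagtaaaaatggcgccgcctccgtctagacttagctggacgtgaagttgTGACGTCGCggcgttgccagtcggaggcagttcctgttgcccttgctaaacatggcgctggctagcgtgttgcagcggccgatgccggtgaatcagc
Psmd12: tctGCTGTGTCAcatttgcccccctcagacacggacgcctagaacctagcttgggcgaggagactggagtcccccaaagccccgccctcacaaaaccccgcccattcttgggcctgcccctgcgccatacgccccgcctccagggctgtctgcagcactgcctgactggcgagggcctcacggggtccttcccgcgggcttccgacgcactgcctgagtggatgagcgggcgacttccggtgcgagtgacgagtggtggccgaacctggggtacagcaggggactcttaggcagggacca

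Of 16984 genes tested, 4625 were called different between double-silenced and scramble cells (27.2%) at an adjusted p under 0.05 in edgeR's quasi-likelihood test. Of these, 2199 were higher (12.9% of genes tested) and 2426 lower (14.3%) in double-silenced cells. Most differences were small, since 321 genes (1.89%) were called and changed over 2-fold, 193 of them higher (1.14%) and 128 lower (0.754%). The 4 double-silenced and the 4 scramble libraries did not overlap for 5730 genes (33.7%), 2684 with double silencing higher (15.8%) and 3046 lower (17.9%). The median log2 fold change of all genes was 0.01. When libraries were scaled by their totals alone, that median moved to 0.11, and 4373 genes were then called higher and 1473 lower, so the split of calls went to 74.8% higher, against 47.5% with TMM scaling. TMM factors were 1.05 to 1.06 in double-silenced and 0.981 to 0.995 in scramble libraries, and TMM is used throughout. Counts of list members under library totals are given where they differ by more than 1.5 times. A fit of these 8 libraries alone, without the other groups, called 6268 genes, and list counts from it are given where the number of members called moved by more than 1.5 times. The 27.2% called over all genes, with 12.9% higher and 14.3% lower, is the share against which each list's count in the main fit is to be read. List counts under library totals are to be read against the 4373 higher and 1473 lower of the same 16984 genes. Those from the 8 libraries alone are to be read against the 6268 genes called in that fit. Both settings called more genes than the main fit, so a larger list count there is not by itself a result about the list. The 10 genes with the most counts took 7.67% to 7.84% of the counts with both siRNAs, against 8.35% to 8.54% with scramble.

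Total counts were 25552987, 25249876, 24538578 and 33828418 in the double-silenced libraries, against 24263362, 25956355, 26402159 and 25713324 in the scramble libraries. Double-silenced library 4 was the deepest, and without it 3875 genes were called. In a principal component analysis of the 1000 most variable genes over the 16 unloaded libraries, the first component (35.8% of variance) placed double-silenced cells at 9.07 to 10.8 and cells with siAtf3 alone at 14.9 to 16.8, against -13.7 to -11.5 for siNfe2l1 alone and -13.7 to -11.8 for scramble. Adipoq and Plin1, which mark adipocytes, had at least 20930 and 39616 counts in every library. Pdgfra of precursors and fibroblasts, Adgre1 of macrophages, Pecam1 of endothelium and Acta2 of smooth muscle were also present in all 8 libraries. Cd3e of T cells had 0 or 1 counts per library, Msln of mesothelium 0 to 2 and Myog of muscle precursors 0 to 3, and these were not tested. Cd79a of B cells had at most 19 counts. In such bulk samples, fewer cells of a type and less RNA per cell cannot be told apart.

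Nfe2l1 mRNA (ENSMUSG00000038615, GRCm39 chromosome 11, 96708240 to 96720794) stood at 112, 115, 116 and 113 CPM in double-silenced cells, against 479, 489, 493 and 487 CPM in scramble cells. The groups were far apart, and the log2 fold change was -2.09 ± 0.07 (adjusted p = 8.88e-23), with 23.4% of the scramble level left. siNfe2l1 alone left 15.2%, and the double-silenced cells held more Nfe2l1 mRNA than those cells, by 0.63 ± 0.07 (adjusted p = 6.11e-09). Atf3 mRNA (ENSMUSG00000026628, chromosome 1, 190902493 to 190950236) stood at 16.3, 13.6, 14.8 and 16.7 CPM in double-silenced cells, against 24, 28.5, 25.6 and 29.1 CPM in scramble cells. All double-silenced libraries lay below all scramble libraries, with 57.2% left, against 37.8% left with siAtf3 alone. The log2 fold change of Atf3 was -0.80 ± 0.30 (adjusted p = 0.0468), just inside the threshold, and leaving out any 1 of the 8 libraries gave adjusted p from 0.0548 to 0.101. The difference in Atf3 between double-silenced cells and siAtf3 alone, 0.60 ± 0.32 (adjusted p = 0.341), did not pass. Counts were read over the whole gene, and the position of the siRNA targets is not given in the sources used here.

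**Figure D1:**
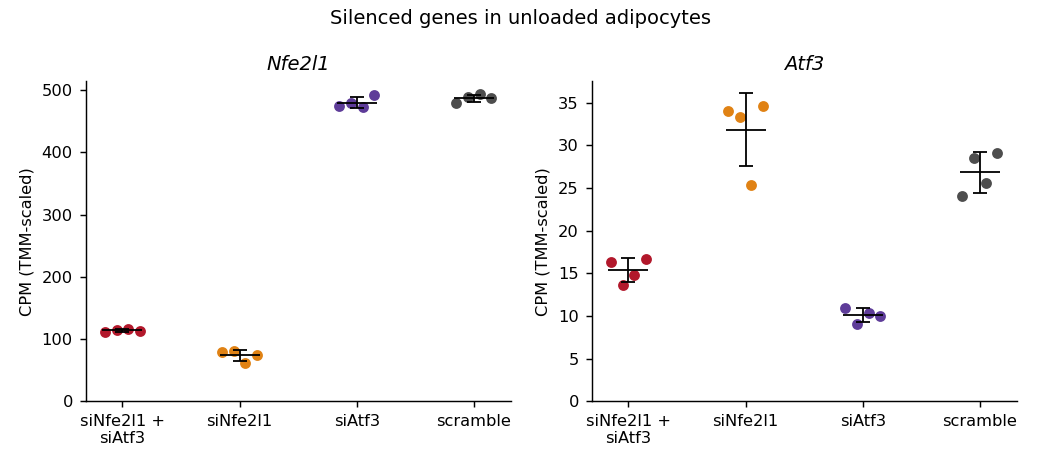
Levels of Nfe2l1 and Atf3 in CPM (vertical axes, from 0) in each library of the 4 unloaded groups, with the mean and SD of 4 libraries in black. Nfe2l1 is lowest with siNfe2l1 alone and 23.4% of scramble with both siRNAs. Atf3 is lowest with siAtf3 alone and 57.2% of scramble with both siRNAs.

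The proteasome, the barrel-shaped protease that degrades ubiquitin-tagged proteins, lost mRNA of nearly all its subunits. Of 33 subunit genes, 31 were lower and 0 higher. In 32, all double-silenced libraries lay below all scramble libraries, against 17.9% of all genes. The median log2 fold change was -0.28, against 0.01 for all genes. The count was 20 lower and 0 higher with library totals, with a median of -0.18. Summed over the 33 genes, double-silenced libraries held 3397 to 3542 CPM, against 4204 to 4250.4 CPM in scramble libraries. The lid of the regulatory particle, which deubiquitinates substrates, held the subunit that fell most. Psmd3, a lid subunit, had 119, 117, 110.4 and 121 CPM in double-silenced cells, against 178, 191, 191 and 179 CPM in scramble cells. Its libraries were clearly apart, with a log2 fold change of -0.66 ± 0.05 (adjusted p = 2.25e-13). Psmd7, also of the lid, had 88.5, 89.7, 84.9 and 88.4 CPM in double-silenced cells, against 121, 123, 129 and 131 CPM in scramble cells. It fell by 0.52 ± 0.05 on the log2 scale (adjusted p = 2.27e-10). Psmd14, the lid enzyme that removes ubiquitin chains, had 66.3, 67.8, 67.6 and 67.7 CPM in double-silenced cells, against 87.7, 92, 91.5 and 91.6 CPM in scramble cells, and the log2 fold change was -0.43 ± 0.04 (adjusted p = 8.99e-10). Psmd12 had 60.6, 60.2, 62.7 and 61.8 CPM in double-silenced cells, against 76.2, 76.3, 75.1 and 77.4 CPM in scramble cells, a log2 fold change of -0.31 ± 0.05 (adjusted p = 5.44e-06).

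In the base, which unfolds substrates, Psmd1, a scaffold subunit, had 119, 122, 117 and 122 CPM in double-silenced cells, against 167, 176, 169 and 171 CPM in scramble cells. The groups did not overlap, and the log2 fold change was -0.51 ± 0.04 (adjusted p = 2.53e-12). Psmc2, of the ring of ATPases, had 82.6, 81.7, 78.6 and 83 CPM in double-silenced cells, against 112, 113, 109.6 and 118 CPM in scramble cells. It also separated the groups, at -0.47 ± 0.05 (adjusted p = 7.38e-10). Adrm1, whose promoter is shown above, had 98.7, 97.1, 98.7 and 96.8 CPM in double-silenced cells, against 127, 127, 136 and 135 CPM in scramble cells, with a log2 fold change of -0.42 ± 0.05 (adjusted p = 9.18e-08). The other base ATPases Psmc1, Psmc3, Psmc4 and Psmc5 fell by 0.20 to 0.30 on the log2 scale. Psmc6 did not pass, at -0.13 ± 0.06 (adjusted p = 0.109), although its 79.3, 82.1, 82.6 and 79.3 CPM with both siRNAs lay below the 87.4, 87.9, 87.2 and 90.8 CPM with scramble. In the catalytic core, Psmb5, which carries the chymotrypsin-like activity, had 109.6, 102, 105 and 110.1 CPM in double-silenced cells, against 123, 129, 122 and 119.6 CPM in scramble cells. That was a log2 fold change of -0.21 ± 0.06 (adjusted p = 0.0115), and its libraries were apart. Psmb7, which carries the trypsin-like activity, fell (-0.28 ± 0.06, adjusted p = 0.00097), whereas Psmb6, with the caspase-like activity, had 95.6, 95.2, 92.4 and 102 CPM in double-silenced cells, against 98.4, 100.4, 96.3 and 98.9 CPM in scramble cells, overlapped between groups and did not pass (-0.03 ± 0.06, adjusted p = 0.722). The 7 alpha-ring genes Psma1 to Psma7 were all lower, between -0.32 (Psma6) and -0.19 (Psma1, Psma2 and Psma5).

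Against each single siRNA, the proteasome genes of double-silenced cells stood between the single silencings by their median. They were lower than with siAtf3 alone in 30 of 33 genes and higher in 0, in a comparison that called 5.65% of all genes (1.94% lower). They were higher than with siNfe2l1 alone in 12 genes and lower in 2, in a comparison that called 26.8% of all genes (12.3% higher and 14.5% lower). The medians against scramble were -0.28 with both siRNAs, -0.41 with siNfe2l1 alone and 0.07 with siAtf3 alone. These 3 comparisons share the scramble libraries. Psma1 differed most between the double silencing and siNfe2l1 alone, by 0.43 ± 0.05 (adjusted p = 9.63e-09). Its log2 fold changes against scramble were -0.19 with both siRNAs, -0.62 with siNfe2l1 alone and 0.41 with siAtf3 alone. Psmd8 and Sem1 were the 2 genes lower than with siNfe2l1 alone, with log2 differences of -0.23 ± 0.07 (adjusted p = 0.00912) and -0.27 ± 0.08 (adjusted p = 0.0108). Against scramble, Psmd8 stood at -0.05 with siNfe2l1 alone and -0.32 with siAtf3 alone, and Sem1 at -0.12 with siNfe2l1 alone and -0.41 with siAtf3 alone. Psmd3 was the subunit whose double silencing departed from the sum of both single effects, by 0.31 ± 0.07 (adjusted p = 0.00602), and it was the only subunit called in that test, which called 1.93% of all genes.

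**Figure D2:**
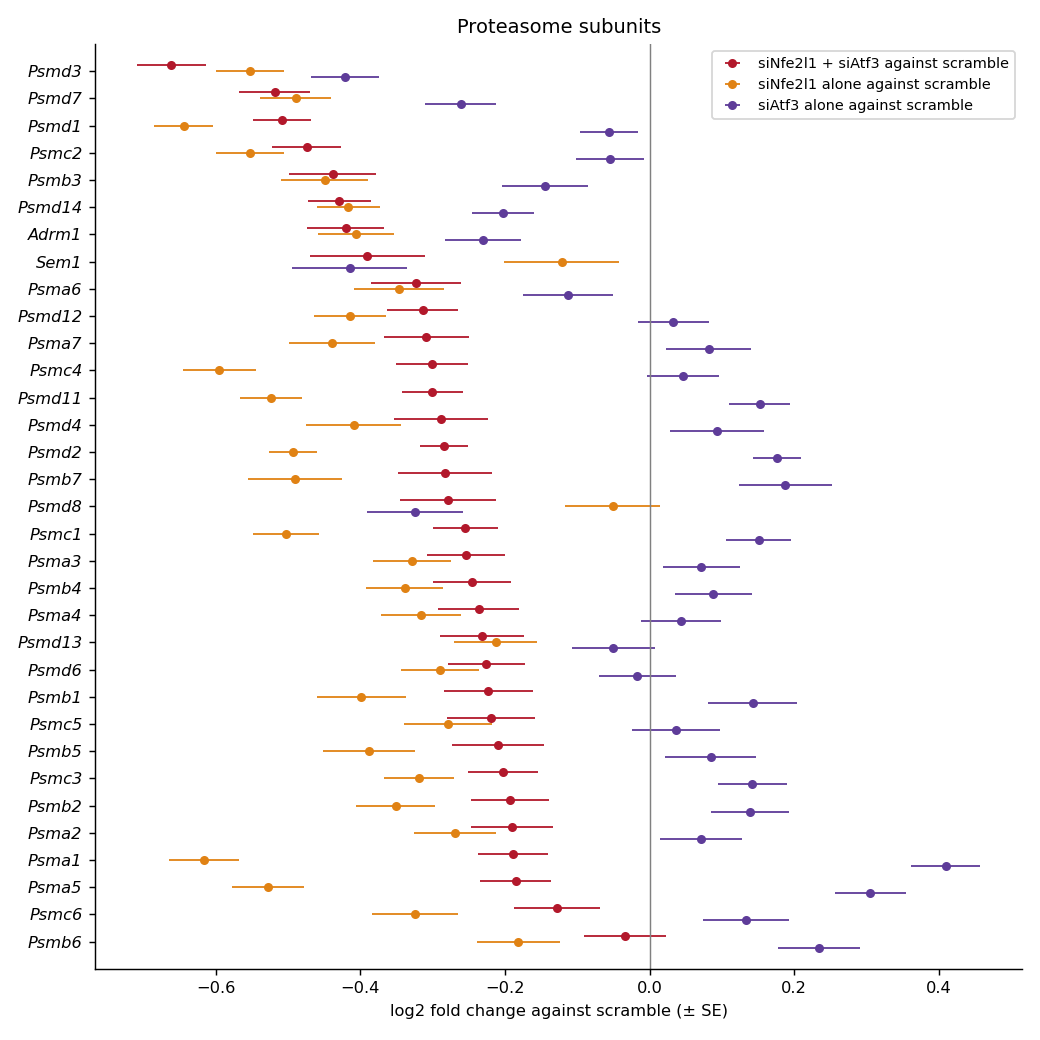
Log2 fold change against scramble (horizontal axis, ± SE) of 33 proteasome subunit genes, sorted by the value with both siRNAs, for double silencing (red), siNfe2l1 alone (orange) and siAtf3 alone (purple). With both siRNAs the points run from -0.66 (Psmd3) to -0.03 (Psmb6). For most genes they lie between those of siNfe2l1 alone and those of siAtf3 alone, and all 3 comparisons use the same scramble libraries.

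The next genes assemble proteasomes or deliver substrates to them. Of 21 tested, 2 higher and 8 lower were called, with a median of -0.12, and with library totals the count was 5 higher and 2 lower. Pomp, the maturation chaperone of the core, had 67.2, 68.1, 69.5 and 78.4 CPM in double-silenced cells, against 92.5, 95.3, 94 and 95.5 CPM in scramble cells. It fell by 0.41 ± 0.06 (adjusted p = 2.99e-06) on the log2 scale and did not overlap. Ubqln2, a ubiquitin shuttle, fell (-0.33 ± 0.04, adjusted p = 3.4e-07), and so did Nploc4, a cofactor of the p97 segregase (-0.17 ± 0.04, adjusted p = 0.00106). Psmd9, a base chaperone, and Uchl5, a deubiquitinase of the proteasome, rose, by 0.29 ± 0.07 and 0.30 ± 0.06. Of the 7 immunoproteasome and activator genes, 3 rose and 2 fell, with 3 and 0 under library totals, and 1 fell without double-silenced library 1. Psmb10, an inducible catalytic subunit, rose (0.18 ± 0.05, adjusted p = 0.00678), as did the activator genes Psme1 (0.20 ± 0.05, adjusted p = 0.00142) and Psme3 (0.13 ± 0.04, adjusted p = 0.0079). Psmb8, another inducible catalytic subunit, and Psme2 fell by 0.23 and 0.28, and in both the groups overlapped. Autophagy receptors and polyubiquitin genes had 3 of 11 higher (Calcoco1, Hdac6 and Nbr1) and 1 lower (Tax1bp1), and 3 higher and 0 lower under library totals. The 8 libraries alone gave 4 higher and 4 lower. The call of Tax1bp1 was lost in 7 of the alternatives and left-out libraries. Calcoco1, a receptor of selective autophagy, had 117, 119.7, 118 and 121 CPM in double-silenced cells, against 101, 97.3, 106 and 104 CPM in scramble cells, a log2 fold change of 0.22 ± 0.05 (adjusted p = 0.00175). Among 14 CNC factors and their partners, 4 were lower and 0 higher (1 each with library totals). They were Bach1, Bach2, Fbxw7 and Nfe2l3, a paralog of Nfe2l1 with 3.09, 3.62, 3.38 and 3.07 CPM in double-silenced cells, against 3.32, 4.75, 5.82 and 5.52 CPM in scramble cells. Its groups overlapped, and the log2 fold change was -0.57 ± 0.15 (adjusted p = 0.00463).

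Genes of the integrated stress response, by which phosphorylation of eIF2 alpha raises ATF4 and its amino acid and chaperone targets, were called about as often as all genes. Of 29 tested, 7 fell and 1 rose (27.6% called, against 27.2% of all genes), with a median of -0.12. Counts were 3 higher and 5 lower under library totals, and 4 higher and 15 lower with the 8 libraries alone. Slc7a5, the large neutral amino acid transporter, had 49.7, 50.3, 48.4 and 44.1 CPM in double-silenced cells, against 93.2, 92.3, 104 and 101 CPM in scramble cells. No library overlapped, with a log2 fold change of -1.02 ± 0.09 (adjusted p = 3.95e-11). Psat1, of serine synthesis, had 72.7, 76.6, 66.6 and 64.7 CPM in double-silenced cells, against 93.7, 91, 100.5 and 104 CPM in scramble cells, also without overlap, at -0.47 ± 0.06 (adjusted p = 9.03e-08). Psph, the last enzyme of serine synthesis, and Asns, asparagine synthetase, fell by 0.33 and 0.26 on the log2 scale. Slc7a11, the cystine importer, was the member that rose (0.35 on the log2 scale), but its call was lost with no filter on low counts, with limma-voom and without double-silenced library 1, 2 or 3 or scramble library 1 or 4 (adjusted p up to 0.0879). Cytosolic aminoacyl-tRNA synthetases, which ATF4 also raises, had 2 higher (Dars and Hars) and 2 lower (Cars and Wars) of 20, or 20% called. The count was 3 higher and 0 lower under library totals, 2 higher and 5 lower with the 8 libraries alone, and 0 or 1 higher and 1 or 2 lower with any 1 library left out. Hars lost its call without any 1 of the 8 libraries, and Dars without any of 6 of them.

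Chaperones and degradation factors of the endoplasmic reticulum fell in 14 of 22 genes and rose in 1, with a median of -0.15. Under library totals 5 fell and 3 rose. The medians against scramble were 0.04 with siNfe2l1 alone and -0.19 with siAtf3 alone, over shared scramble libraries. Compared with siNfe2l1 alone, 15 of the 22 were lower with both siRNAs and 1 higher, where 14.5% and 12.3% of all genes were. Compared with siAtf3 alone, 0 were called, in a comparison that called only 5.65% of all genes. Manf, a secreted factor of the unfolded protein response, had 69, 70.2, 65.6 and 69.8 CPM in double-silenced cells, against 90.6, 90.1, 89.7 and 95.2 CPM in scramble cells. The libraries were apart, and the log2 fold change was -0.41 ± 0.06 (adjusted p = 1.6e-06). Calr, calreticulin, had 717, 728, 719 and 705 CPM in double-silenced cells, against 830.1, 863, 888 and 856 CPM in scramble cells, without overlap and with a log2 fold change of -0.26 ± 0.04 (adjusted p = 1.41e-06). Pdia4, a disulfide isomerase, and Dnajc3, a co-chaperone of BiP, fell by 0.28 and 0.26. Dnajb9, another co-chaperone of BiP, was the member that rose, with 91.8, 99.2, 90.3 and 87.1 CPM in double-silenced cells, against 70.1, 66.3, 75.2 and 74.3 CPM in scramble cells and a log2 fold change of 0.37 ± 0.07 (adjusted p = 0.000134). Of 17 heat shock genes, 6 fell and 0 rose (4 and 0 under library totals, and 13 and 0 with the 8 libraries alone). Hspb8, a small heat shock protein of chaperone-assisted autophagy, had 77.6, 76.6, 77.8 and 80.9 CPM in double-silenced cells, against 125, 126, 130.2 and 128 CPM in scramble cells. Its groups were apart, at -0.70 ± 0.11 (adjusted p = 8.58e-06). Hsf1, the master regulator of the heat shock response, had 25.2, 28.5, 26.5 and 26.9 CPM in double-silenced cells, against 36.4, 36.1, 37.3 and 37.4 CPM in scramble cells, at -0.46 ± 0.06 (adjusted p = 7.87e-07). These 2 differed in their single-siRNA values, since Hspb8 stood at -0.74 with siNfe2l1 alone and -0.18 with siAtf3 alone, and Hsf1 at 0.05 with siNfe2l1 alone and -0.58 with siAtf3 alone.

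Antioxidant genes known as targets of NFE2L2, the relative of NFE2L1 that binds the same elements, split in both directions. Of 30 tested, 10 rose and 6 fell, with a median of 0.01 and counts of 13 higher and 3 lower under library totals. Hmox1, heme oxygenase, had 733, 733, 656 and 727 CPM in double-silenced cells, against 398, 422, 482 and 491 CPM in scramble cells. Every double-silenced library lay above every scramble library, with a log2 fold change of 0.67 ± 0.09 (adjusted p = 9.13e-07). The single siRNAs gave -0.0044 with siNfe2l1 alone and 0.19 with siAtf3 alone, and the double silencing departed from their sum by 0.49 ± 0.13 (adjusted p = 0.0351). Nqo1, a quinone reductase, had 26.2, 25.3, 24.5 and 27.1 CPM in double-silenced cells, against 16.7, 17.1, 17.7 and 19.2 CPM in scramble cells, also without overlap, at 0.54 ± 0.07 (adjusted p = 1.24e-07). For Nqo1 the departure was negative, -0.45 ± 0.10 (adjusted p = 0.00623), with single values of 0.47 with siNfe2l1 alone and 0.53 with siAtf3 alone. Gclm, the modifier of glutathione synthesis, rose (0.33 ± 0.05, adjusted p = 3.92e-06), and Gsta3, a glutathione transferase, rose (0.42 ± 0.07, adjusted p = 1.98e-05). Srxn1, sulfiredoxin, had 228, 238, 222 and 225 CPM in double-silenced cells, against 289, 294, 308 and 316 CPM in scramble cells and fell, at -0.40 ± 0.06 (adjusted p = 2.12e-06).

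Slc40a1, ferroportin, the iron exporter, had 70.8, 73.6, 73.8 and 74.4 CPM in double-silenced cells, against 36.5, 35.5, 38.3 and 38.9 CPM in scramble cells. Its level was clearly higher in every double-silenced library, with a log2 fold change of 0.97 ± 0.06 (adjusted p = 2.67e-15). Tfrc, the transferrin receptor that imports iron, had 88.7, 93.1, 93.3 and 81.1 CPM in double-silenced cells, against 171, 183, 171 and 167 CPM in scramble cells. It was lower in every double-silenced library, at -0.96 ± 0.09 (adjusted p = 9.67e-10). Both departed from the sum of the single siRNAs, Slc40a1 by -0.56 ± 0.08 (adjusted p = 6.08e-05) and Tfrc by 0.54 ± 0.13 (adjusted p = 0.0175), towards a smaller change. Over the 17 genes of iron handling and ferroptosis, 4 rose and 7 fell (4 and 3 under library totals). The 4 became 2 without any 1 of double-silenced libraries 1, 2 and 3 and scramble libraries 2, 3 and 4. Steap3, a ferrireductase, fell (-0.37 ± 0.05, adjusted p = 1.09e-06), and Cp, the ferroxidase ceruloplasmin, rose (0.29 ± 0.04, adjusted p = 1.02e-06). Of 6 metallothionein and zinc transporter genes, 3 fell and 0 rose (2 and 1 under library totals). Mt1, a metallothionein, had 293, 251, 256 and 312 CPM in double-silenced cells, against 364, 434, 362 and 339.8 CPM in scramble cells, at -0.43 ± 0.11 (adjusted p = 0.00318). The other members that fell were the zinc importers Slc39a10 and Slc39a14.

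Fatty acid synthesis and desaturation fell in 11 of 22 genes and rose in 2, with a median of -0.10 (5 higher and 7 lower under library totals). Fads1, the desaturase of polyunsaturated fatty acids, had 96.2, 94.4, 100.4 and 101 CPM in double-silenced cells, against 315, 321, 311 and 304 CPM in scramble cells. The groups were far apart, with a log2 fold change of -1.67 ± 0.05 (adjusted p = 6.05e-24). Acly, ATP citrate lyase, had 711, 686, 701 and 688 CPM in double-silenced cells, against 1243, 1187, 1187 and 1041 CPM in scramble cells. Slc25a1, which exports the citrate that ACLY cleaves, had 245, 220.1, 239.6 and 249.9 CPM in double-silenced cells, against 409, 423, 396 and 377 CPM in scramble cells. Neither gene overlapped between groups, and the log2 fold changes were -0.74 ± 0.06 (adjusted p = 1.06e-11) and -0.75 ± 0.05 (adjusted p = 3.04e-13). Scd2, a stearoyl-CoA desaturase, had 1399, 1312, 1476 and 1406 CPM in double-silenced cells, against 2065, 2161, 1835 and 1799.5 CPM in scramble cells, at -0.49 ± 0.07 (adjusted p = 3.46e-06). Pnpla3, a lipid droplet protein, fell too (-0.46 ± 0.07, adjusted p = 1.13e-05). With siAtf3 alone the median lay lower still, and 14 of the 22 were higher with both siRNAs than with siAtf3 alone, where 3.71% of all genes were, while 8 were lower than with siNfe2l1 alone. The medians against scramble were -0.10 with both siRNAs, 0.07 with siNfe2l1 alone and -0.52 with siAtf3 alone, over shared scramble libraries. In 10 of the 22 genes the double silencing was higher than the sum of the single effects, a direction called in 1.37% of all genes. For Acly that departure was 0.78 ± 0.09 (adjusted p = 1.26e-06), and for Slc25a1 0.47 ± 0.08 (adjusted p = 0.000277).

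Of 30 genes of triglyceride synthesis, droplets and lipolysis, 6 rose and 10 fell. Gpam, the acyltransferase of the first step of glycerolipid synthesis, had 620.3, 616, 609 and 556 CPM in double-silenced cells, against 996, 1041, 970.0 and 922 CPM in scramble cells. Dgat1, of the last step, had 89.8, 93.4, 93.1 and 102 CPM in double-silenced cells, against 141, 146, 150.3 and 153 CPM in scramble cells. Both were lower in every double-silenced library, with log2 fold changes of -0.71 ± 0.09 (adjusted p = 2.83e-07) and -0.64 ± 0.06 (adjusted p = 1.4e-10). Lpl, lipoprotein lipase, among the most abundant mRNAs here, had 5273, 5206, 5264 and 5285 CPM in double-silenced cells, against 7969, 7729.7, 7842 and 7927 CPM in scramble cells. The groups were apart, and it fell by 0.58 ± 0.04 on the log2 scale (adjusted p = 4.14e-14). Of the 6 that rose, between 0.19 and 0.89, 2 are given here, chosen after their values were seen. Dgat2, the other enzyme of the last step, had 257, 237, 286 and 288 CPM in double-silenced cells, against 217, 207, 199.0 and 191 CPM in scramble cells, without overlap and at 0.39 ± 0.06 (adjusted p = 3.2e-06). Pck1, phosphoenolpyruvate carboxykinase of glycerol synthesis, had 18.3, 21.2, 17.4 and 17.1 CPM in double-silenced cells, against 8.58, 7.03, 12.7 and 11.4 CPM in scramble cells, also without overlap, at 0.89 ± 0.13 (adjusted p = 2.7e-06). Bscl2, seipin of the droplet and reticulum contact, and Fitm2, of droplet formation, fell as well (-0.48 ± 0.05, adjusted p = 1.48e-08, and -0.40 ± 0.05, adjusted p = 1.4e-07). Of 28 genes of cholesterol synthesis and uptake, 4 rose and 6 fell. Insig1, which holds the sterol sensor in the endoplasmic reticulum, had 298, 301, 309 and 291 CPM in double-silenced cells, against 494, 463, 472 and 466 CPM in scramble cells, at -0.66 ± 0.11 (adjusted p = 5.36e-05). Msmo1, Acat2 and Sqle, enzymes of sterol synthesis, fell by 0.22 (Sqle) to 0.36 (Msmo1). Among 17 LXR targets and efflux genes, 1 rose and 4 fell (3 and 2 under library totals, and 1 and 8 with the 8 libraries alone). The gene that rose was Abcg1, a sterol exporter, with 213, 209.8, 203 and 207 CPM in double-silenced cells, against 113, 122, 128 and 129 CPM in scramble cells. It did not overlap, at 0.76 ± 0.05 (adjusted p = 2.05e-13), and stood at 0.13 with siNfe2l1 alone and 1.11 with siAtf3 alone.

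Of 22 adipogenic transcription factors, 6 fell and 0 rose, and the 27.3% called was near the 27.2% of all genes. The count was 4 each way under library totals, and 8 lower and 3 higher with the 8 libraries alone. Rxra, partner of PPAR gamma, had 131, 131, 129 and 134 CPM in double-silenced cells, against 172, 178, 184 and 166 CPM in scramble cells. The libraries were apart, at -0.41 ± 0.05 (adjusted p = 2e-08). Rxrg, its paralog, and Ebf1 fell as well (-0.51 ± 0.08, adjusted p = 2.36e-06, and -0.22 ± 0.06, adjusted p = 0.00681). Of 16 adipokines and secreted factors, 5 fell and 0 rose (4 and 1 under library totals, and 9 and 3 with the 8 libraries alone). Igfbp3, which binds insulin-like growth factors, had 57.2, 52.2, 49.9 and 55.2 CPM in double-silenced cells, against 97.6, 108, 109 and 102 CPM in scramble cells. Igf1, the growth factor, had 163, 159.6, 171 and 167 CPM in double-silenced cells, against 267, 260.2, 236 and 233 CPM in scramble cells. Neither overlapped, with log2 fold changes of -0.95 ± 0.07 (adjusted p = 9.2e-13) and -0.59 ± 0.07 (adjusted p = 2.12e-08). Adipoq, adiponectin, had 793, 814, 804 and 858 CPM in double-silenced cells, against 937, 926, 907 and 931 CPM in scramble cells, a smaller fall of 0.18 (adjusted p = 0.00195), and Cfd, adipsin, was at -0.28 ± 0.07 (adjusted p = 0.00104). Plin1, the droplet coat protein, did not pass (0.08 ± 0.04, adjusted p = 0.133). Of 20 genes of insulin signalling, 5 fell and 0 rose (Akt1, Grb10, Igf1r, Pik3ca and Trib1), and the 25% called was not above the 27.2% of all genes. The count was 1 lower and 2 higher under library totals and 7 lower and 3 higher with the 8 libraries alone. It was 3 lower without double-silenced library 4 and 2 lower without scramble library 2. Of the 5, Pik3ca kept its call under every alternative and with each library left out.

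Thermogenic and beta-adrenergic genes fell in 6 of 16 and rose in 1 (5 and 2 under library totals). Dio2, the deiodinase that makes active thyroid hormone, had 5.84, 6.61, 7.06 and 6.55 CPM in double-silenced cells, against 17.5, 17.7, 17.7 and 16 CPM in scramble cells. Ppargc1a, the coactivator of mitochondrial genes, had 5.35, 5, 5.99 and 5.05 CPM in double-silenced cells, against 11.5, 10.8, 11.8 and 11.3 CPM in scramble cells. Every double-silenced library lay below every scramble library for both, at -1.40 ± 0.17 (adjusted p = 1.2e-07) and -1.09 ± 0.22 (adjusted p = 0.000465). Prdm16, a brown fat regulator, and Ckb, brain-type creatine kinase, fell (-0.39 ± 0.09, adjusted p = 0.00088, and -0.52 ± 0.07, adjusted p = 1.26e-06). Adrb3, the adipocyte beta-adrenergic receptor, was the gene that rose, with 328, 319, 326 and 334 CPM in double-silenced cells, against 232, 237, 252 and 244 CPM in scramble cells, at 0.44 ± 0.07 (adjusted p = 1.06e-05). Ucp1, the uncoupling protein, was low, with 4.20, 4.85, 3.80 and 4.91 CPM in double-silenced cells, against 5.18, 4.60, 5.32 and 5.44 CPM in scramble cells. Its groups overlapped and it did not pass (-0.20 ± 0.16, adjusted p = 0.381), although its single values were -1.09 with siNfe2l1 alone and -0.64 with siAtf3 alone. The double silencing thus lay above the sum of the single values by 1.53 ± 0.24 (adjusted p = 0.000199).

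Genes of fuel use went both ways. Breakdown of branched-chain amino acids fell in 11 of 18 genes and rose in 1 (6 and 2 under library totals), with a median of -0.18. Pcca, of propionyl-CoA carboxylase, had 92.2, 88.2, 95.4 and 99 CPM in double-silenced cells, against 138, 144, 142 and 138 CPM in scramble cells. Aldh6a1, of valine breakdown, had 160.4, 154, 159.8 and 151 CPM in double-silenced cells, against 232, 231, 228 and 232 CPM in scramble cells. Both were without overlap, at -0.58 ± 0.05 (adjusted p = 2.3e-12) and -0.56 ± 0.05 (adjusted p = 1.91e-11). Auh, Mccc1 and Hibch, enzymes of leucine and valine breakdown, fell by 0.32 to 0.42. In fatty acid oxidation, 6 of 19 genes fell and 1 rose (2 and 5 under library totals), and 2 rose without scramble library 1. Cpt2, the inner-membrane carnitine palmitoyltransferase, had 115, 110.4, 112 and 121 CPM in double-silenced cells, against 245, 234, 244 and 234 CPM in scramble cells. It did not overlap, at -1.06 ± 0.04 (adjusted p = 1.9e-20). Acadvl, very long chain acyl-CoA dehydrogenase, fell (-0.40 ± 0.05, adjusted p = 2.43e-08). Ehhadh, the peroxisomal bifunctional enzyme, rose, with 78.9, 85.1, 79.2 and 76.1 CPM in double-silenced cells, against 44.9, 40.5, 48.1 and 49.8 CPM in scramble cells, at 0.80 ± 0.15 (adjusted p = 0.000136). Glycolysis rose in 7 of 20 genes and fell in 0 (12 and 0 under library totals, and 10 and 1 with the 8 libraries alone), and 1 fell without double-silenced library 1. Aldoc, an aldolase, had 33.7, 31.7, 34.1 and 37.6 CPM in double-silenced cells, against 16.5, 18, 16.8 and 17.4 CPM in scramble cells, without overlap and at 1.00 ± 0.06 (adjusted p = 1.63e-14), and Ldhb, Pfkm and Slc16a3, a lactate transporter, rose by 0.27 to 0.31. Of 44 nuclear respiratory chain genes, 8 fell and 1 rose (5 and 11 under library totals, and 13 and 4 with the 8 libraries alone), and 0 rose without any 1 library other than double-silenced library 2. Of 13 mitochondrial mRNAs, 2 fell and 0 rose, mt-Cytb (-0.33 ± 0.09, adjusted p = 0.00422) and mt-Nd5 (-0.29 ± 0.10, adjusted p = 0.041), with 0 each under library totals and 4 lower with the 8 libraries alone. Without any 1 of 7 libraries, all but scramble library 3, 1 was lower. Of 60 cytosolic ribosomal protein genes, 0 were called in edgeR's test with TMM scaling, where 1 was higher and 1 lower at an unadjusted p under 0.05. DESeq2's Wald test and limma-voom each called 1 lower, 5 rose under library totals, and the 8 libraries alone gave 4 higher and 5 lower. Leaving out 1 library gave at most 1 either way.

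Extracellular matrix genes fell broadly. Of 31 collagen and matrix genes, 22 fell and 0 rose. In 25, all double-silenced libraries lay below all scramble libraries, against 17.9% of all genes. The median log2 fold change was -0.21, and under library totals 11 fell and 0 rose. Col3a1, a fibrillar collagen, had 3748, 3518, 3682 and 3522 CPM in double-silenced cells, against 7203, 7526, 7459 and 7143 CPM in scramble cells. Fbn1, fibrillin, had 481, 476, 496 and 451 CPM in double-silenced cells, against 859, 861, 859 and 844 CPM in scramble cells. Both were far apart between groups, with log2 fold changes of -1.02 ± 0.06 (adjusted p = 1.42e-15) and -0.85 ± 0.08 (adjusted p = 2.65e-09). Tnc, tenascin C, had 1205, 1183, 1047 and 991 CPM in double-silenced cells, against 1578, 1527, 1683 and 1643 CPM in scramble cells, at -0.54 ± 0.07 (adjusted p = 7.2e-08). Col5a3 and Col14a1 fell by 0.44 and 0.89. Against siNfe2l1 alone, 26 of the 31 were lower with both siRNAs, a direction called in 14.5% of all genes. The medians against scramble were -0.21 with both siRNAs, 0.06 with siNfe2l1 alone and -0.29 with siAtf3 alone. Of 20 matrix proteases and inhibitors, 2 rose and 6 fell (5 and 4 under library totals, and 5 and 9 with the 8 libraries alone), and 1 rose without double-silenced library 3 or scramble library 1. Timp3, a metalloproteinase inhibitor, had 110.4, 105, 97.6 and 92.2 CPM in double-silenced cells, against 219, 214, 227 and 216 CPM in scramble cells. It was lower in every double-silenced library, at -1.11 ± 0.08 (adjusted p = 1.61e-12). Adamts4 and Plat, both proteases, also fell, and Mmp12, a macrophage elastase, rose (0.50 ± 0.10, adjusted p = 0.000393).

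In TGF-beta, BMP and Wnt signalling, 12 of 27 genes fell and 3 rose, where 14.3% of all genes fell and 12.9% rose. The 3 became 1 without double-silenced library 2 and 0 without scramble library 1. Inhba, a subunit of activin, had 61.7, 67.2, 61.3 and 54.3 CPM in double-silenced cells, against 132, 126, 134 and 142 CPM in scramble cells. Ccn2, connective tissue growth factor, had 220.1, 215, 215 and 216 CPM in double-silenced cells, against 335, 339, 334 and 325 CPM in scramble cells. Neither overlapped, at -1.13 ± 0.12 (adjusted p = 3.33e-08) and -0.62 ± 0.09 (adjusted p = 4.51e-06). Smad3, which carries the signal to the nucleus, fell (-0.37 ± 0.06, adjusted p = 2.68e-06), as did Sfrp1, a secreted Wnt antagonist (-0.54 ± 0.09, adjusted p = 9.99e-06), and Inhbb (-0.34 ± 0.06, adjusted p = 2.66e-05). Of 16 precursor and fibroblast markers, 7 fell and 0 rose (4 and 2 under library totals), with a summed level of 3761 to 3901 CPM in double-silenced libraries, against 4318 to 4420.4 CPM in scramble libraries. Fap, a fibroblast surface protease, had 13.7, 12.2, 11.9 and 14.5 CPM in double-silenced cells, against 26.7, 27.4, 27.4 and 25.5 CPM in scramble cells, at -1.03 ± 0.09 (adjusted p = 2.08e-11). Pdgfrb, a platelet-derived growth factor receptor, had 255, 241, 245 and 242 CPM in double-silenced cells, against 365, 366, 394 and 380.4 CPM in scramble cells, at -0.61 ± 0.06 (adjusted p = 1.47e-09). Pdgfra, which defines precursors, did not pass (0.11 ± 0.07, adjusted p = 0.25) and overlapped. The part of these cells in the matrix result was not tested. Endothelial markers had 4 of 16 lower and 1 higher (4 and 3 under library totals, and 8 and 2 with the 8 libraries alone), with Pecam1 at -0.39 ± 0.06 (adjusted p = 1.08e-05) and Cdh5 at -0.40 ± 0.06 (adjusted p = 2.97e-06), and the gene that was higher lost its call without double-silenced library 1 or 4 or scramble library 1, 3 or 4. Smooth muscle and pericyte markers had 6 of 14 lower and 1 higher. Of markers of the other cell types, 2 of 5 Schwann cell genes rose, 1 of 2 mesothelial genes tested fell (0 under library totals and without double-silenced library 1 or 2 or scramble library 1), and of 4 skeletal muscle genes tested only Acta1, given below, fell (under library totals 1 fell and 1 rose). Of T and B cell markers 1 of 10 was tested, Cd79a, which rose by 1.45 on the log2 scale but lost its call without double-silenced library 1 or 3 or scramble library 3 (adjusted p up to 0.0902). Of 10 genes of caveolae and flotillins, 2 rose and 2 fell (2 and 1 under library totals, and 2 and 5 with the 8 libraries alone). Among these, 1 rose without any 1 library other than double-silenced library 3, and 1 fell without double-silenced library 2.

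Macrophage markers rose together. Of 25 markers, 21 rose and 0 fell, with a median of 0.65, and leaving out a library gave 19 to 22 higher. In 20 markers all double-silenced libraries lay above all scramble libraries, against 15.8% of all genes. The summed level was 850.3 to 939 CPM in double-silenced libraries, 591 to 808 CPM with siNfe2l1 alone and 555 to 702 CPM with siAtf3 alone, against 412 to 481 CPM in scramble libraries. By this sum each double-silenced library lay above every other library, and both single-siRNA groups lay above scramble. The median log2 fold changes of the markers against scramble were 0.65 with both siRNAs, 0.66 with siNfe2l1 alone and 0.26 with siAtf3 alone, over shared scramble libraries. Cd5l, a scavenger protein of macrophages, had 76.7, 77.1, 76.1 and 95.3 CPM in double-silenced cells, against 15.6, 20.4, 22.5 and 18 CPM in scramble cells. Lyz2, lysozyme, had 255, 253, 244 and 269 CPM in double-silenced cells, against 83.7, 92.6, 90.7 and 98.3 CPM in scramble cells. Both separated the groups, at 2.09 ± 0.18 (adjusted p = 1.71e-09) and 1.48 ± 0.14 (adjusted p = 3.84e-09). C1qa, C1qb and C1qc, the subunits of complement C1q, rose by 1.17 ± 0.11, 1.08 ± 0.10 and 0.90 ± 0.09. Adgre1, the macrophage surface antigen, had 18.4, 19.2, 19 and 19.7 CPM in double-silenced cells, against 9.95, 13.4, 12.2 and 12.5 CPM in scramble cells, at 0.67 ± 0.10 (adjusted p = 4.9e-06). Csf1r, the receptor for macrophage growth factor, singled out after its value was seen, did not pass (0.10 on the log2 scale), and neither did Fcgr1, Clec10a and Lyve1. Against siAtf3 alone 14 of 25 were higher and 0 lower, where 3.71% of all genes were higher. Against siNfe2l1 alone 4 were higher and 3 lower, close to the 12.3% and 14.5% of all genes. Cd3e, Msln and Myog were at or near 0, as given above, and more macrophages and more RNA per macrophage cannot be told apart.

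**Figure D3:**
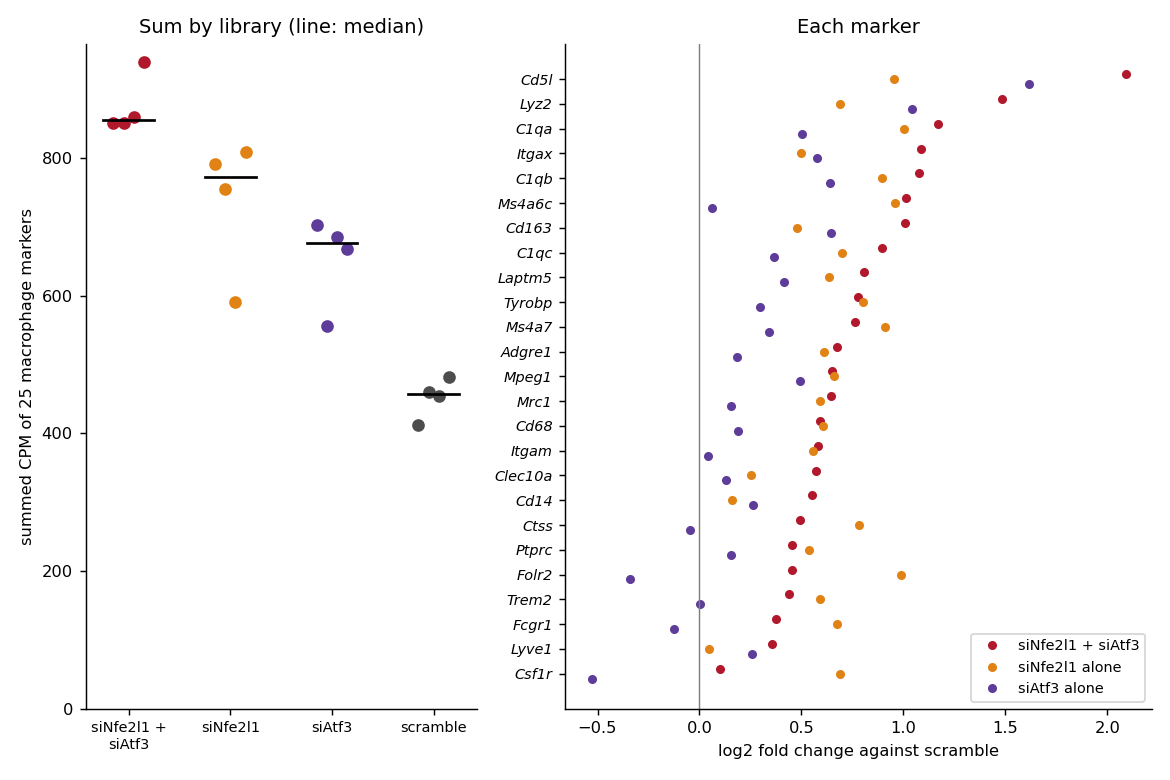
Left, summed level of 25 macrophage markers in CPM (vertical axis, from 0) by library in the 4 unloaded groups, with the median as a line. Right, log2 fold change against scramble of each marker with both siRNAs, siNfe2l1 alone and siAtf3 alone. Sums run from 850.3 to 939 CPM with both siRNAs, against 412 to 481 CPM with scramble, without overlap.

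Among 29 chemokines, cytokines and members of the NF-kB pathway, 3 rose and 5 fell (6 and 4 under library totals), and the 27.6% called was near the 27.2% of all genes. Tnf, a macrophage cytokine, was low, with 0.743, 1.01, 1.15 and 0.92 CPM in double-silenced cells, against 0.415, 0.511, 0.424 and 0.313 CPM in scramble cells. It rose without overlap, at 1.19 ± 0.24 (adjusted p = 0.000279). Ccl9, a chemokine of myeloid cells, had 51.3, 55.7, 50.2 and 48.6 CPM in double-silenced cells, against 27.4, 34.1, 32.4 and 35.1 CPM in scramble cells, at 0.67 ± 0.10 (adjusted p = 2.36e-06), and Il1a was the other gene that rose. Lif, Ptgs2 (cyclooxygenase of induced prostaglandin synthesis) and Cxcl12 fell, at -0.81 ± 0.14 (adjusted p = 4e-05), -0.64 ± 0.13 (adjusted p = 0.000462) and -0.31 ± 0.06 (adjusted p = 5.85e-05). Macrophage markers were higher in the same libraries, as given above, and their part in these values was not tested. Acute phase genes fell in 8 of 14 and rose in 1, with a median of -0.37. Hp, haptoglobin, had 911, 826, 854 and 907 CPM in double-silenced cells, against 2739, 3114, 2913 and 2724 CPM in scramble cells. C3, the complement component, had 1485, 1387, 1481 and 1436 CPM in double-silenced cells, against 2031, 2105, 2059.8 and 1896 CPM in scramble cells. Neither overlapped, at -1.72 ± 0.13 (adjusted p = 4.41e-11) and -0.48 ± 0.06 (adjusted p = 2.41e-07). Lcn2, lipocalin, and Serpina3n, a protease inhibitor, fell by 0.96 and 0.52. Orm1, Orm2 and Orm3 are near-identical copies whose reads may be shared, and their separate values are uncertain.

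Interferon response genes rose in 9 of 28 and fell in 1, with a median of 0.30. Counts were 14 higher and 1 lower under library totals, 14 higher and 2 lower with the 8 libraries alone, and 2 lower without double-silenced library 4. With 1 library left out, 6 to 11 were higher. Ifit2, an antiviral effector, had 43.8, 44.1, 36.7 and 50.5 CPM in double-silenced cells, against 25.6, 24.1, 25.3 and 31.8 CPM in scramble cells. Ifih1, the sensor of long double-stranded RNA, had 102, 106, 93.3 and 104 CPM in double-silenced cells, against 77.9, 81.1, 79.2 and 86 CPM in scramble cells. Both were apart, at 0.72 ± 0.15 (adjusted p = 0.000723) and 0.32 ± 0.09 (adjusted p = 0.00432). Gbp2, a guanylate-binding protein, and Ifi27 rose by 0.31 ± 0.06 and 0.29 ± 0.07. Irf7, a transcription factor of the interferon response, was the gene that fell, with 314, 322, 321 and 359 CPM in double-silenced cells, against 393, 391, 386 and 415 CPM in scramble cells, at -0.27 ± 0.07 (adjusted p = 0.0025). Against siNfe2l1 alone 12 of 28 were higher (12.3% of all genes were), and against siAtf3 alone 5 (3.71%). The double-silenced cells were given both siRNAs together, and the total siRNA dose per group is not given in the sources used here. Cxcl10, a chemokine induced by interferon, had 48.8, 50.1, 41.3 and 59.7 CPM in double-silenced cells, against 33.6, 42.5, 37 and 57.9 CPM in scramble cells and did not pass (0.23 ± 0.22, adjusted p = 0.493). Its single values were -0.93 with siNfe2l1 alone and -0.28 with siAtf3 alone, and the departure from their sum was 1.44 ± 0.31 (adjusted p = 0.0119). Of 13 genes of siRNA processing and RNA sensing, 2 rose (Ifih1 and Tlr7) and 2 fell (Ago3 and Xpo5), with 5 and 1 under library totals and 4 each with the 8 libraries alone, and 1 fell without double-silenced library 3 or 4 or scramble library 3. Tlr7, an endosomal sensor of single-stranded RNA, had 4.20, 4.11, 3.72 and 4.30 CPM in double-silenced cells, against 1.16, 1.37, 1.66 and 1.96 CPM in scramble cells, at 1.40 ± 0.20 (adjusted p = 6.8e-07). Macrophages are also known to express Tlr7, and macrophage markers were higher in the same libraries (21 of 25, median 0.65), and their part in the interferon and RNA sensing values was not tested.

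Lysosome and autophagy genes split, with 9 of 31 higher and 11 lower (14 and 7 under library totals). Ctsb, cathepsin B, had 1857, 1819, 1851 and 1919 CPM in double-silenced cells, against 3202, 3268, 3252 and 3199 CPM in scramble cells. It was lower in all double-silenced libraries, at -0.80 ± 0.04 (adjusted p = 2.07e-16). Lipa, lysosomal acid lipase, had 234, 252, 232 and 229 CPM in double-silenced cells, against 163, 167, 180.2 and 182 CPM in scramble cells and rose, at 0.45 ± 0.05 (adjusted p = 9.4e-09). Tfe3, a transcription factor of lysosomal genes, and Wipi1, of autophagosome formation, fell (-0.32 ± 0.04, adjusted p = 5.25e-08, and -0.39 ± 0.04, adjusted p = 3.22e-09), and Gpnmb, abundant in lipid-laden macrophages, rose (0.43 ± 0.06, adjusted p = 2.32e-06). Of 32 cell cycle genes, 8 rose and 9 fell (10 and 4 under library totals), and 5 fell without double-silenced library 4. E2f1 and Ccne1, which drive entry into S phase, rose by 0.49 ± 0.07 and 0.43 ± 0.07, while Mki67 and Top2a, which mark dividing cells, fell, at -0.58 ± 0.10 (adjusted p = 4.04e-05) and -0.40 ± 0.08 (adjusted p = 0.000326). Of 20 p53 targets and cell death genes, 4 rose and 6 fell (9 and 4 under library totals), and 2 rose without double-silenced library 1. Trp53inp1, a p53 target of autophagy and stress, had 129, 137, 141 and 118 CPM in double-silenced cells, against 68.3, 69.4, 69.5 and 73.4 CPM in scramble cells. It was higher in every double-silenced library, at 0.90 ± 0.08 (adjusted p = 1.7e-10), and its departure from the sum of the single values was -0.88 ± 0.11 (adjusted p = 1.76e-05). In the circadian clock, 5 of 19 fell and 2 rose (1 rose without double-silenced library 2 or 3 or scramble library 2 or 4), with Hlf at -1.36 ± 0.14 (adjusted p = 1.49e-09), Per2 at -0.76 ± 0.13 (adjusted p = 5.59e-05) and Clock at -0.43 ± 0.08 (adjusted p = 0.000178). Of 14 retinoid genes, 2 rose and 3 fell. Aldh1a1, retinaldehyde dehydrogenase, had 55.5, 59.7, 59.5 and 60.6 CPM in double-silenced cells, against 21.3, 23.5, 20.6 and 22.1 CPM in scramble cells, at 1.43 ± 0.07 (adjusted p = 9.93e-18). AP-1 and immediate early genes, which include basic leucine zipper partners of ATF3 and, as Egr2 and Klf6, zinc finger factors outside that family, had 1 of 30 higher (Batf3) and 2 lower (Egr2 and Klf6), in a comparison where 27.2% of all genes were called. The count was 3 higher and 0 lower under library totals, and 3 higher and 10 lower with the 8 libraries alone. It was 1 lower without double-silenced library 1 or 4 or scramble library 2, 3 or 4. Klf6 lost its call under 7 of the alternatives and left-out libraries (adjusted p up to 0.09).

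**Figure D4:**
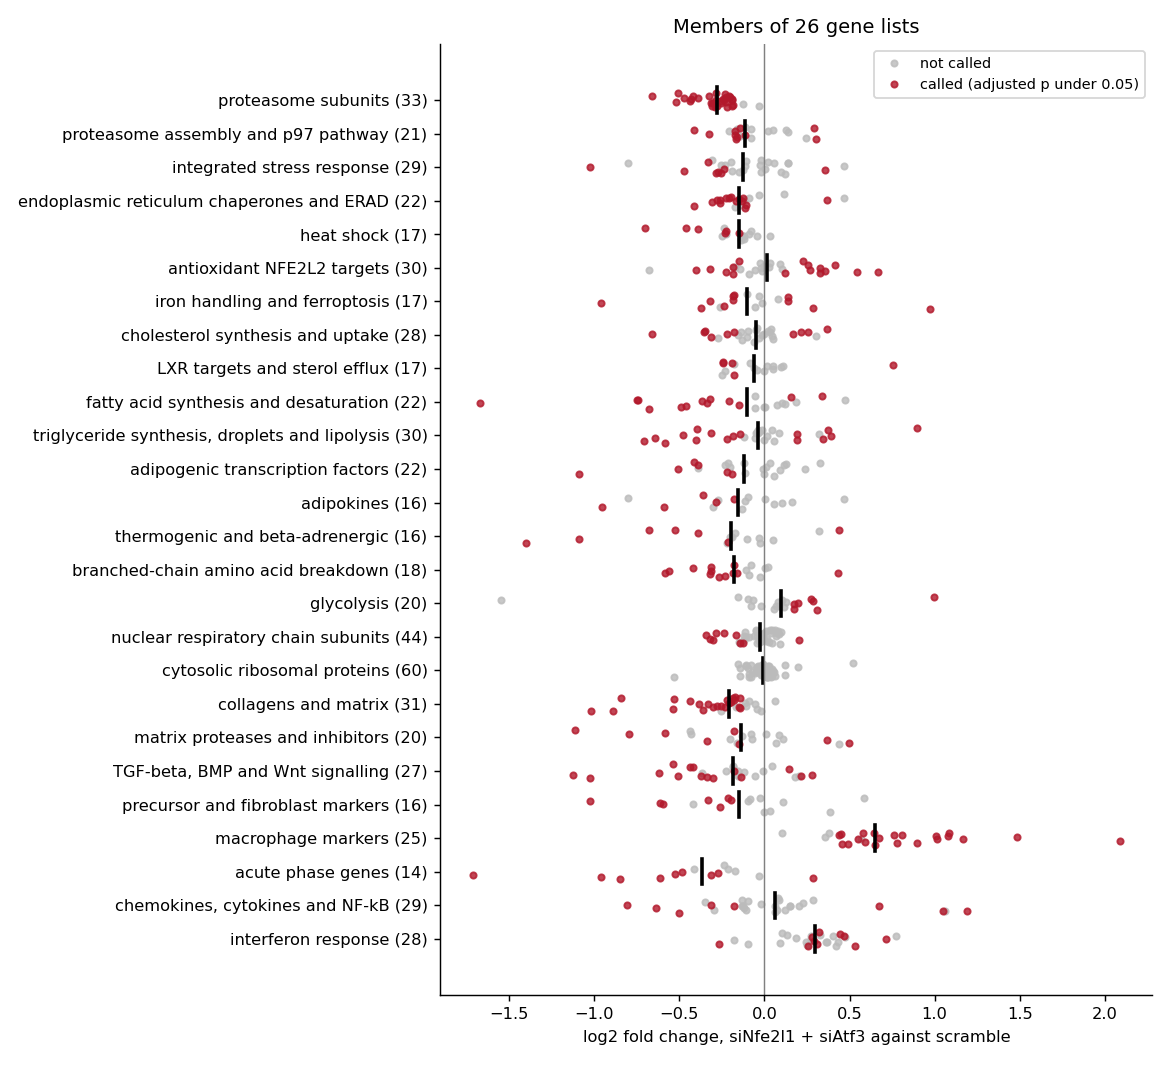
Log2 fold change of double-silenced against scramble cells (horizontal axis) for each tested gene of 26 gene lists (rows). Red points passed an adjusted p under 0.05 and black lines are list medians. The proteasome median is -0.28 and the collagen and matrix median -0.21, and macrophage markers have a median of 0.65, against 0.01 for all genes.

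Among called protein-coding genes whose mean log2 CPM over all libraries reached 2 and whose groups did not overlap, the 12 lowest and 12 highest genes span several functions. The lowest was Acta1, skeletal muscle actin, with 4.42, 4.26, 4.38 and 5.75 CPM in double-silenced cells, against 26.2, 30.0, 27.3 and 21.6 CPM in scramble cells. It was far below scramble in all 4 libraries, at -2.47 ± 0.25 (adjusted p = 2.69e-08), with Myog near 0. Nfe2l1 came next, then Ube2v2, a cofactor of ubiquitin conjugation, with 1.64, 1.79, 2.42 and 2.87 CPM in double-silenced cells, against 7.21, 8.29, 6.56 and 7.28 CPM in scramble cells, at -1.73 ± 0.15 (adjusted p = 5.5e-11). Atp2b4, a plasma membrane calcium pump, had 13.9, 14, 14.1 and 11.7 CPM in double-silenced cells, against 42.3, 44, 46.4 and 40.9 CPM in scramble cells, at -1.70 ± 0.11 (adjusted p = 2.58e-13). Htra1, a secreted serine protease, had 173, 162, 173 and 179 CPM in double-silenced cells, against 503, 543, 527 and 508 CPM in scramble cells, at -1.60 ± 0.05 (adjusted p = 4.29e-23). Abat, which degrades GABA, Bmp8b, of the BMP family, H1f4, a linker histone, and Ccdc152 fell by 1.39 (Ccdc152) to 1.62 (Bmp8b), and Hp, Fads1 and Dio2 are given above. The highest was Mup17, a major urinary protein, with 13.2, 17.2, 27.5 and 28.8 CPM in double-silenced cells, against 2.16, 1.06, 0.733 and 0.665 CPM in scramble cells. Its double-silenced libraries ranged widely but did not overlap with scramble, at 4.25 ± 0.57 (adjusted p = 2.69e-06), and it belongs to a cluster of near-identical genes, so its counts are uncertain. Clec4n and Clec7a, lectin receptors of myeloid cells, were high too. Clec4n had 13.7, 13.1, 13.7 and 15.3 CPM with both siRNAs, against 2.32, 3.65, 3.36 and 3.83 CPM with scramble. Clec7a had 16.2, 17.6, 17.9 and 17.8 CPM with both siRNAs, against 4.69, 6.40, 4.90 and 7.32 CPM with scramble. Both were clearly higher, at 2.08 ± 0.17 (adjusted p = 8.56e-12) and 1.57 ± 0.11 (adjusted p = 2.46e-13). Wfdc17 and Ccl6, a chemokine, rose by 1.71 ± 0.15 and 1.42 ± 0.09. Ogdhl, a relative of oxoglutarate dehydrogenase, had 6.39, 7.88, 8.06 and 8.84 CPM in double-silenced cells, against 2.16, 2.55, 2.78 and 2.11 CPM in scramble cells, at 1.70 ± 0.12 (adjusted p = 2.58e-13). Mb, myoglobin, Rdh12, a retinol dehydrogenase, and Coro6, a coronin, rose by 1.30 ± 0.13, 1.21 ± 0.13 and 1.20 ± 0.17. Cd5l, Lyz2 and Aldh1a1 are also among the 12 highest and are given above. Cd5l and Lyz2 are macrophage markers, which rose in the same libraries. The part of macrophages in the values of Clec4n, Clec7a, Wfdc17 and Ccl6 was not tested.

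**Figure D5:**
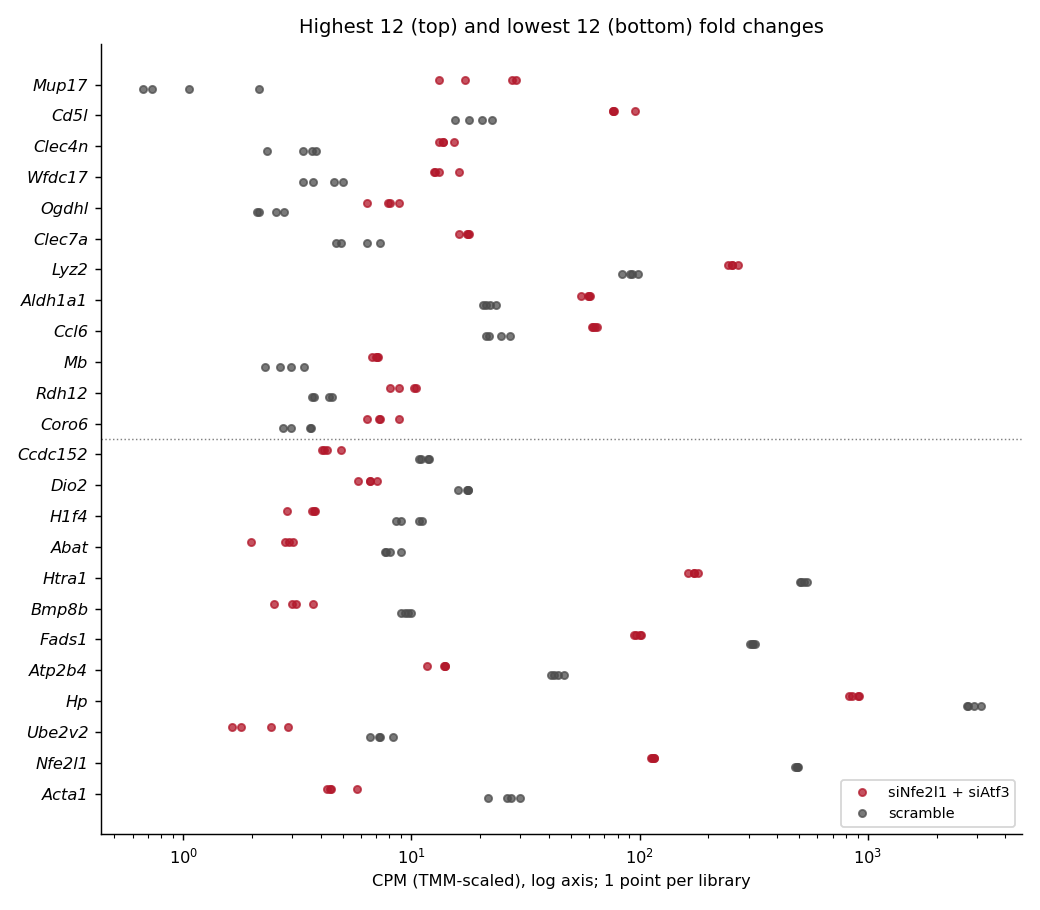
CPM (log axis) in each library of the 12 highest and the 12 lowest called genes, with double-silenced libraries in red and scramble libraries in grey. These genes were chosen from those whose groups did not overlap, and Mup17 is the highest and Acta1 the lowest by fold change.

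Fewer genes separated the double silencing from siAtf3 alone than from siNfe2l1 alone, with a difference in counts that was not itself tested: 960 genes differed from siAtf3 alone (5.65%; 630 higher and 330 lower), and 4554 from siNfe2l1 alone (26.8%; 2092 higher and 2462 lower). Over 2-fold, these were 19 genes (0.112%) and 252 genes (1.48%). The count against siAtf3 alone was 559 without siAtf3 library 2. For Fads1 the log2 fold changes against scramble were -1.67 with both siRNAs, 0.08 with siNfe2l1 alone and -2.04 with siAtf3 alone. Timp3 was at -1.11 with both siRNAs, 0.18 with siNfe2l1 alone and -1.57 with siAtf3 alone, and Col3a1 at -1.02 with both siRNAs, 0.16 with siNfe2l1 alone and -1.24 with siAtf3 alone. Fads1 and Timp3 differed from siAtf3 alone, by 0.36 ± 0.05 (adjusted p = 6.92e-06) and 0.45 ± 0.08 (adjusted p = 0.000419). The mRNA left of Nfe2l1 was higher than with siNfe2l1 alone, as given above, and for Atf3 the difference from siAtf3 alone did not pass. A test of the departure from the sum of both single effects called 328 genes (1.93%), 232 above the sum (1.37%) and 96 below it (0.565%), and 15 by over 2-fold (0.0883%). Without siAtf3 library 2 it called 214. Among called departures of protein-coding genes whose mean log2 CPM reached 2, those farthest above the sum were Ucp1, Cxcl10, Ccdc152, H1f4 and Elovl3. Ccdc152 had 4.27, 4.89, 4.15 and 4.04 CPM in double-silenced cells, against 11, 11.8, 10.8 and 12 CPM in scramble cells, with single values of -1.19 with siNfe2l1 alone and -1.51 with siAtf3 alone and a departure of 1.31 ± 0.14 (adjusted p = 1.26e-06). Elovl3, a fatty acid elongase, departed by 1.17 ± 0.29 (adjusted p = 0.019), and H1f4 by 1.20 ± 0.17 (adjusted p = 3.2e-05). By the same rule, those farthest below the sum were Trp53inp1, Apod, Mmp27, Hs3st6 and Ogdhl. Apod, an apolipoprotein, had 24.3, 25.2, 26 and 24.9 CPM in double-silenced cells, against 33.6, 30.4, 34.1 and 36.9 CPM in scramble cells, with single values of 0.43 with siNfe2l1 alone and -0.0034 with siAtf3 alone and a departure of -0.85 ± 0.16 (adjusted p = 0.00197).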

How the data were processed

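Poly(A) RNA libraries of primary adipocytes were sequenced, and the submitters' processing notes name fastp, HISAT2 2.0.5, featureCounts 1.5.0-p3 and the build GRCm39. The deposited table holds the authors' raw counts of reads per gene, in whole numbers, for 32 libraries. Strand setting and multi-mapping are not given in the sources used here. An added C in column names is read as cholesterol. All 8 groups were fitted together with edgeR's quasi-likelihood test on TMM-scaled counts, over 16984 of 56748 genes with enough counts (minimum count 10, minimum total 15), with 24 residual degrees of freedom and Benjamini-Hochberg adjustment over all genes tested at 0.05. Values are CPM on TMM-scaled library totals and log2 fold changes ± SE. Each SE is the size of the log2 fold change divided by the square root of the test's F value. It thus rests on a spread estimated over all 8 groups, cholesterol-loaded ones included, and not on the compared libraries alone. Python 3.11.15 made the figures and promoter search. Library totals of the 8 libraries ran from 24263362 to 33828418, and n is 4 in every group.

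Members and gene lists were chosen with earlier results of these data known. Named genes were the silenced genes, all proteasome subunits, at most 5 called members of each of 48 lists, the 12 highest and 12 lowest called genes, and the 5 largest departures each way; a few are not reported here. Same-numbered double-silenced and scramble libraries did not deviate together (correlations -0.030 to 0.0087). So few correlations cannot exclude pairing, and the labels do not say whether the numbers pair the libraries. The main fit treats them as unpaired. Replicates differed by more than sampling noise (chi-square per degree of freedom 2.67 to 6.61). The alternatives were DESeq2 size factors, library totals, no filter on low counts, DESeq2's Wald test, limma-voom, fewer groups in the fit, a replicate block and leaving out each library.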

Additional observations from a re-analysis of the deposited data

Results flagged for a closer look

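In 24 of 424 groups of 4 values checked, 1 library lay far from the other 3 by Dixon's test, where chance gives about 1 in 20, so these values describe single libraries. Double-silenced library 4 had a total count of 33828418, against 24538578 to 25552987 in the other double-silenced libraries. Double-silenced library 1 was high for Akt1 (202 CPM, others 199 to 199 CPM). Double-silenced library 1 was low for Psmd14 (66.3 CPM, others 67.6 to 67.8 CPM). Double-silenced library 2 was high for Pdia4 (199.7 CPM, others 193 to 194 CPM) and Tfe3 (59.6 CPM, others 56.6 to 56.8 CPM). Double-silenced library 2 was low for H1f4 (2.84 CPM, others 3.68 to 3.77 CPM). Double-silenced library 3 was low for Hmox1 (656 CPM, others 727 to 733 CPM). Double-silenced library 4 was high for Acta1 (5.75 CPM, others 4.26 to 4.42 CPM), Cd5l (95.3 CPM, others 76.1 to 77.1 CPM) and Slc16a3 (213 CPM, others 190.0 to 193 CPM). Double-silenced library 4 was low for Atp2b4 (11.7 CPM, others 13.9 to 14.1 CPM) and Dnajc3 (141 CPM, others 149 to 151 CPM). Scramble library 1 was high for Per2 (12.2 CPM, others 10.3 to 10.6 CPM). Scramble library 1 was low for Cfd (1030.3 CPM, others 1058 to 1061 CPM) and Psmd14 (87.7 CPM, others 91.5 to 92 CPM). Scramble library 2 was high for Lif (18.7 CPM, others 13.2 to 13.8 CPM), Mki67 (36.9 CPM, others 35 to 35.3 CPM) and Mmp27 (8.995 CPM, others 6.75 to 7.04 CPM). Scramble library 3 was high for Xpo5 (75.9 CPM, others 71.9 to 72.4 CPM). Scramble library 3 was low for Psma6 (139 CPM, others 143 to 143 CPM) and Psmc5 (97.8 CPM, others 101 to 102 CPM). Scramble library 4 was high for Manf (95.2 CPM, others 89.7 to 90.6 CPM). Scramble library 4 was low for Dio2 (16 CPM, others 17.5 to 17.7 CPM) and Fbn1 (844 CPM, others 859 to 861 CPM).

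For 42 genes named in the text, the effect of siAtf3 given with siNfe2l1 differed from its effect without it, in edgeR's test of the departure of the double silencing from the sum of both single siRNAs. The same test called 1.93% of all genes. Some of the 42 were named for their departure in it, and many others for their call against scramble, which shares libraries. Their number is therefore no result about the named genes. The double silencing lay above the sum on the log2 scale for Ucp1 (1.53, adjusted p = 0.000199), Cxcl10 (1.44, adjusted p = 0.0119), Ccdc152 (1.31, adjusted p = 1.26e-06), H1f4 (1.20, adjusted p = 3.2e-05), Elovl3 (1.17, adjusted p = 0.019), Pck1 (0.90, adjusted p = 0.0068), Bmp8b (0.85, adjusted p = 0.00563) and Acly (0.78, adjusted p = 1.26e-06). Further genes above the sum were Nfe2l1 (0.65, adjusted p = 7.14e-05), Acat2 (0.60, adjusted p = 0.000143), Gpam (0.55, adjusted p = 0.013), Tfrc (0.54, adjusted p = 0.0175), Prdm16 (0.52, adjusted p = 0.0178), Hmox1 (0.49, adjusted p = 0.0351), C3 (0.49, adjusted p = 0.00162) and Slc25a1 (0.47, adjusted p = 0.000277). Others above it were Igfbp3 (0.45, adjusted p = 0.0107), Slc7a5 (0.45, adjusted p = 0.0443), Tnc (0.38, adjusted p = 0.0234), Fitm2 (0.37, adjusted p = 0.00337), Dgat1 (0.36, adjusted p = 0.015), Htra1 (0.35, adjusted p = 0.00488), Lpl (0.33, adjusted p = 0.000389) and Col5a3 (0.32, adjusted p = 0.049). Smaller values above it were found for Psmd3 (0.31, adjusted p = 0.00602), Aldh6a1 (0.31, adjusted p = 0.00869), Asns (0.30, adjusted p = 0.0162), Acadvl (0.29, adjusted p = 0.012), Fads1 (0.29, adjusted p = 0.0192), Ctsb (0.25, adjusted p = 0.0206) and Pcca (0.24, adjusted p = 0.0422). The double silencing lay below the sum on the log2 scale for Trp53inp1 (-0.88, adjusted p = 1.76e-05), Apod (-0.85, adjusted p = 0.00197), Mmp27 (-0.79, adjusted p = 0.000123), Hs3st6 (-0.72, adjusted p = 0.0341), Ogdhl (-0.70, adjusted p = 0.0246), Aldh1a1 (-0.60, adjusted p = 0.000289), Slc40a1 (-0.56, adjusted p = 6.08e-05) and Gsta3 (-0.50, adjusted p = 0.00313). Further genes below the sum were Abcg1 (-0.48, adjusted p = 0.000158), Nqo1 (-0.45, adjusted p = 0.00623) and Aldoc (-0.40, adjusted p = 0.00939). Without siAtf3 library 2 this test called 214 genes, against 328 with all libraries.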

How the results depend on the processing

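Of 211 genes named in the text, 200 were called, and 166 of these kept their call and direction under all 8 alternatives and with each of 8 libraries left out; 0 reversed. Those that did not were Adipoq, Akt1, Atf3, Bach1, Bach2, Cars, Cd79a, Dars, Ebf1, Egr2, Fbxw7, Grb10, Hars, Igf1r, Klf6, Nploc4, Orm1, Psma1, Psma2, Psma5, Psmb5, Psmb8, Psmc3, Psmc5, Psme2, Psme3, Slc39a10, Slc7a11, Tax1bp1, Trib1, Wars, Xpo5, mt-Cytb and mt-Nd5. The 4625 calls between double-silenced and scramble cells became 5846 with library totals, 6268 with only the groups compared, and 3875 to 4158 with a library left out. Against siNfe2l1 alone, 4554 calls became 3753 to 4247 with a library left out. The 960 calls against siAtf3 alone became 1733 with only the 4 unloaded groups, 2186 with only the groups compared and 559 to 779 with a library left out, the lowest without siAtf3 library 2. The 328 departures from the sum became 757 with only the 4 unloaded groups or only the groups compared, and 214 to 339 with a library left out, again lowest without siAtf3 library 2. Fits with fewer groups rest on fewer libraries and another estimate of the spread. Atf3 (-0.80 on the log2 scale, adjusted p = 0.0468) missed the threshold with library totals (-0.70, adjusted p = 0.0569), with no filter on low counts (-0.80, adjusted p = 0.0896), with limma-voom (-0.80, adjusted p = 0.0627) and with each library left out (-0.86 to -0.75), and the cause was not tested. Nfe2l1 stayed between -2.11 and -1.99. Whether replicate numbers pair the libraries is not given by the labels. With the replicate block 4804 genes were called against scramble, 4731 against siNfe2l1 alone and 1067 against siAtf3 alone, and 391 departures. Depth limits Tnf, Cd79a and other genes near 1 CPM.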
